A study of Homo sapiens with 6 samples.

Results

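The 8 genes described here encode ATP-gated P2X receptors (P2RX4, P2RX7 and P2RX5), brain-derived neurotrophic factor (BDNF), receptors of the neurotrophin family (NTRK2, NTRK3 and NGFR) and the transcription factor CREB1. They were listed by name out of 61496 features in the deposited table, and all 8 were measured. The libraries came from U251, a long-established line of human glioma cells. Cells left untreated gave 3 libraries (control 1 to 3), and cells exposed for 2 h to the gas sevoflurane (Sev), an inhaled anesthetic, gave the other 3 (Sev 1 to 3). The treatment protocol lists Sev at 5.1%, 3.4% and 1.7%, and the labels assign none of these to a single library. The study's description of the sequencing comparison names the highest of them. RNA was taken from whole cultures and strand-specific adapters were used. In such bulk samples fewer cells of a type and less RNA per cell cannot be told apart. Nothing in the labels says that the 3 libraries of a group came from separate cultures, so p-values measure only the spread between these libraries, which may be technical.

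P2X receptors are cation channels that open when extracellular ATP binds, and the subunits P2X4 (P2RX4), P2X7 (P2RX7) and P2X5 (P2RX5) assemble as trimers. In the nervous system P2X4 is best known from microglia, where calcium entering through it is followed by release of BDNF. BDNF binds the receptor tyrosine kinase TrkB (NTRK2) and the p75 receptor (NGFR), while TrkC (NTRK3) binds mainly neurotrophin-3, and CREB1 binds cAMP response elements in promoters, those of BDNF among them. In the study, the libraries served to look for genes that differ under Sev, in a search for how Sev leads glioma cells to ferroptosis, an iron-dependent form of cell death.

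Promoter sequence is shown for the 3 genes whose RefSeq start-site windows held the half-site of the cAMP response element, TGACG, which reads CGTCA on the other strand, since the list of 8 pairs CREB1 with BDNF and its receptors. Of the 8 genes, 6 had windows in the RefSeq table (GRCh38.p14), each from 250 bases before to 50 bases after a start. P2RX5 and NGFR were not analysed for sequence. The half-site was found in 1 of 5 windows of BDNF, the single window of P2RX4 and 1 of 4 windows of NTRK2. Among all 35116 windows 24.6% held the half-site, 1.85% held the full element TGACGTCA, which contains it, and 3.62% held TGATGNAA, the binding motif of ATF4 with C/EBP proteins. No window of the 6 genes held either longer motif on either strand, and the single windows of P2RX7, NTRK3 and CREB1 held no half-site. Counted over all windows of the 6 genes, the half-site was about as frequent as among all 35116 windows. The 250 bases before each start are printed 5′ to 3′ on the strand of the gene with the half-site in capitals. The BDNF stretch lies at chr11:27701622-27701871 on the minus strand, that of P2RX4 at chr12:121209879-121210128 on the plus strand and that of NTRK2 at chr9:84670099-84670348 on the plus strand.
BDNF: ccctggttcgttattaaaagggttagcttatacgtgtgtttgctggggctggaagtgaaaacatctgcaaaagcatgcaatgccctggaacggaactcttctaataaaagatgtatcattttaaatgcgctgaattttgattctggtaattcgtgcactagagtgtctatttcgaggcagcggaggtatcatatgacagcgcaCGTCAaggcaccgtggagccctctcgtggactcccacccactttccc
P2RX4: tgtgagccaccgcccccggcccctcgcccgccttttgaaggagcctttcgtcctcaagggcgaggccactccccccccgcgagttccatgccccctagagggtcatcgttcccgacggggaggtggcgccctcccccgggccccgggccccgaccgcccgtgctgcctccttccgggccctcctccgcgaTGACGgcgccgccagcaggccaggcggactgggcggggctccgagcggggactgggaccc
NTRK2: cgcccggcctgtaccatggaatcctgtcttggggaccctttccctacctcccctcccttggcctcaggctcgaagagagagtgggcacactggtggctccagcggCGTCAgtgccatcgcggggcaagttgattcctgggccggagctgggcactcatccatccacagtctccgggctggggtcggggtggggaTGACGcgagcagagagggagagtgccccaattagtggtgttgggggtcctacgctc
Counted with the start base as 0, the half-site began at position -47 in BDNF, at -60 in P2RX4, and at -145 and -56 in NTRK2. These are matches of letters and no binding was measured.

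Of the 8 genes, 4 rose in Sev-treated U251 cells (BDNF, P2RX5, NTRK3 and NGFR), 2 fell (CREB1 and NTRK2), while P2RX4 and P2RX7 did not pass the test. The test was edgeR's quasi-likelihood test on the deposited counts with Benjamini-Hochberg adjustment over 27514 features and a limit of 0.05. The same limit called 43.7% of all features tested (22.1% higher and 21.5% lower) and 45.9% of the 15189 protein-coding genes tested. Changes of BDNF, P2RX5 and NGFR were also past the threshold used in the study, which asks for a change of more than 1 on the log2 scale and an unadjusted p below 0.05. That threshold took 23.5% of all features and 16.7% of protein-coding genes, and 11.4% of all features passed it in the higher direction, that of all 3 genes. The groups did not overlap in 7 genes, all but P2RX4, and 56.5% of all features and 57.8% of protein-coding genes had groups that did not overlap. The P2RX5 transcript passed the filter on low counts only through the Sev libraries, so its place among the genes that changed follows in part from the filter.

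**Figure D1:**
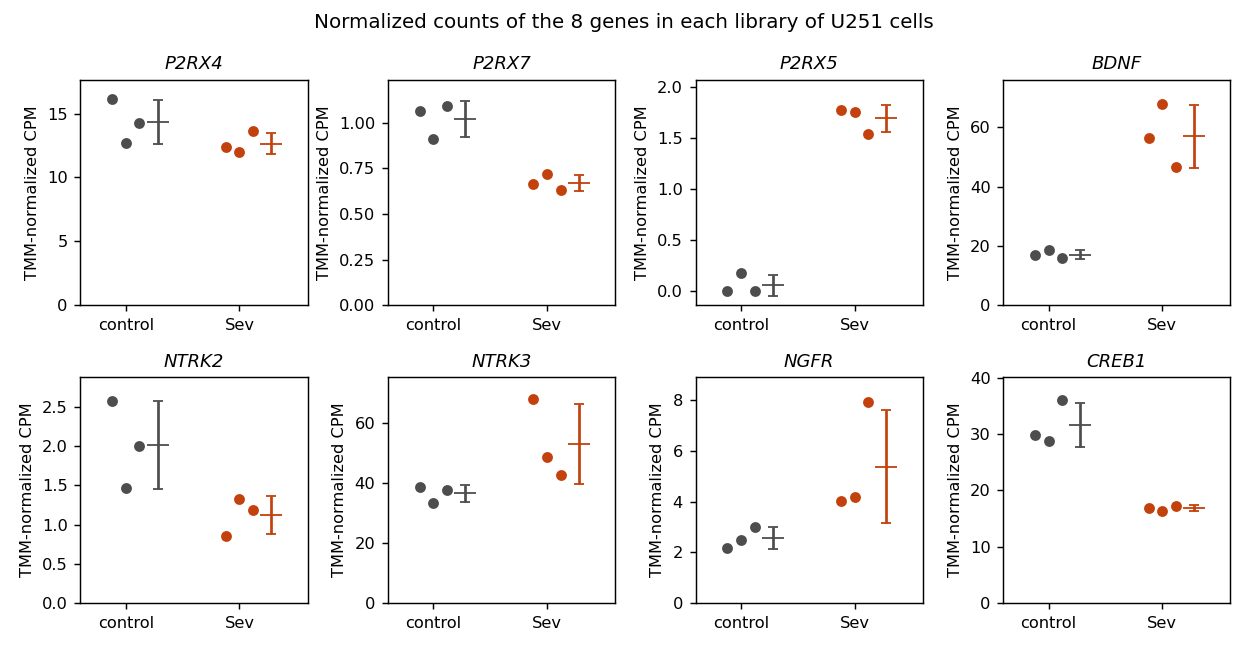
TMM-normalized CPM (vertical axis of each panel, linear) of the 8 genes in each library of control (grey) and Sev-treated (orange) U251 cells, with the mean and SD of 3 libraries beside the points. BDNF lay between 15.8 and 18.6 CPM in control and between 46.6 and 67.8 CPM in Sev, while P2RX4 was the one gene whose groups overlapped.

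P2RX4 encodes the P2X4 subunit (ENSG00000135124, chr12:121209857-121234106, plus strand, by GENCODE 29 on GRCh38, as are all gene positions here). It had 682, 502 and 691 counts in control 1 to 3 and 466, 450 and 539 counts in Sev 1 to 3. After scaling to library size by TMM (CPM, the count relative to the scaled library total), control 2 lay within the Sev range and the groups overlapped. The mean was 14.3 ± 1.73 CPM in control and 12.7 ± 0.850 CPM in Sev (SD, n = 3 each), a log2 fold change of -0.18 (95% interval -0.48 to 0.12) that did not pass the test (adjusted p = 0.294). A P2RX4 log2 change below -0.48 or above 0.12 lies outside that interval.

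P2RX7 encodes the P2X7 subunit, which opens only at high ATP, and lies 21825 bases upstream of P2RX4 on the same strand (ENSG00000089041, chr12:121132819-121188032). It was a rare transcript, with 45, 36 and 53 counts in control 1 to 3 and 25, 27 and 25 counts in Sev 1 to 3. All 3 Sev libraries were below every control library. The mean was 1.02 ± 0.0987 CPM in control and 0.671 ± 0.0442 CPM in Sev, with a log2 fold change of -0.61 (SE 0.24) and an adjusted p = 0.0694, outside the limit. With library size as the only scaling (adjusted p = 0.0356) or with at least 10 counts required in every library (adjusted p = 0.0408) the P2RX7 difference passed.

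P2RX5 encodes the P2X5 subunit (ENSG00000083454, chr17:3672199-3696404, minus strand). It had 0, 7 and 0 counts in control 1 to 3 and 67, 66 and 61 counts in Sev 1 to 3. The transcript was thus close to undetected in control cells and present at an even, low level in all Sev libraries. Summed over libraries there were 7 counts in control and 194 in Sev, a ratio of normalized levels of 31.5 with an exact counting interval of 15.0 to 79.3, which covers counting error only. The P2RX5 change passed the test (adjusted p = 0.00215), with a fitted log2 fold change of 4.88 (SE 0.78). The fitted log2 value was 9.12 without control 2, when the remaining controls were at 0, so that its size rests on that library and on the prior count.

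The annotation overlaps P2RX5 with the read-through gene P2RX5-TAX1BP3 on the same strand, and 41.6% of the exonic bases of P2RX5 belong to both, so that reads there could have been split between them. P2RX5-TAX1BP3 had 85, 60 and 123 counts in control and 122, 166 and 684 counts in Sev. Most of its Sev signal was in Sev 3, which was about level with the other Sev libraries for P2RX5 itself. The log2 fold change of P2RX5-TAX1BP3 was 2.04 (adjusted p = 0.0286), and it was 0.92 without Sev 3. Its call was lost without control 1, control 2 or control 3 (adjusted p = 0.0871, 0.0905 and 0.0597). Counts of P2RX5 and the read-through gene added together were 85, 67 and 123 in control and 189, 232 and 745 in Sev, and this sum, formed after the data were seen, rose with a log2 fold change of 2.26 (SE 0.50, adjusted p = 0.00839). Without Sev 3 the value of the sum was 1.43 (adjusted p = 0.00400), and the call held without each of the other libraries too. The nearest tested gene upstream of P2RX5 on its strand, ITGAE, 18224 bases away, rose as well (log2 fold change 0.51, adjusted p = 0.00783), a call that was lost in the 3 limma fits on FPKM (adjusted p up to 0.0809). Its part in the result was not tested.

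The other P2X genes place these values in the family. P2RX2, which encodes a slowly desensitizing P2X subunit (ENSG00000187848, chr12:132618776-132622386), had 30, 67 and 49 counts in control and 373, 299 and 421 counts in Sev. Every Sev library held more than 4 times the count of any control library. P2RX2 rose from 1.14 ± 0.503 to 9.50 ± 1.38 CPM, an 8.37-fold difference (adjusted p = 0.000324). A feature on the opposite strand, ENSG00000280311, shares 19.7% of the exonic bases of P2RX2 and rose too, from 0.884 to 5.11 CPM. P2RX1 had 0 counts in all libraries, P2RX3 had at most 9 counts in a library and was not tested, and P2RX6 was level between the groups (log2 fold change 0.01, adjusted p = 0.989; the sign of this value changed with the scaling).

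On the FPKM scale, which divides by a length for each gene, the summed level of the P2X genes was 2.24 to 2.37 in control and 4.73 to 6.14 in Sev libraries. P2RX4 made up 55.7% to 72.1% of that sum in control and 20.7% to 22.9% in Sev. P2RX2 made up 13.2% to 30.9% in control and 63.6% to 70.0% in Sev, and P2RX5 went from 0% to 1.23% in control to 4.85% to 6.70% in Sev. None of these ranges overlapped between the groups. Per length, P2RX4 thus led the P2X genes in control cells and P2RX2 in Sev-treated cells. In counts, which are not divided by length, P2RX4 (8159 exonic bases) stayed above P2RX2 (1973 exonic bases) in every Sev library. These exonic bases merge all annotated transcripts, 14 of P2RX4 and 9 of P2RX2. Which of these genes leads in Sev-treated cells thus depends on the length divided by. With 3 libraries a side an exact permutation test could not go under 0.1, and none is given for the shares.

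**Figure D2:**
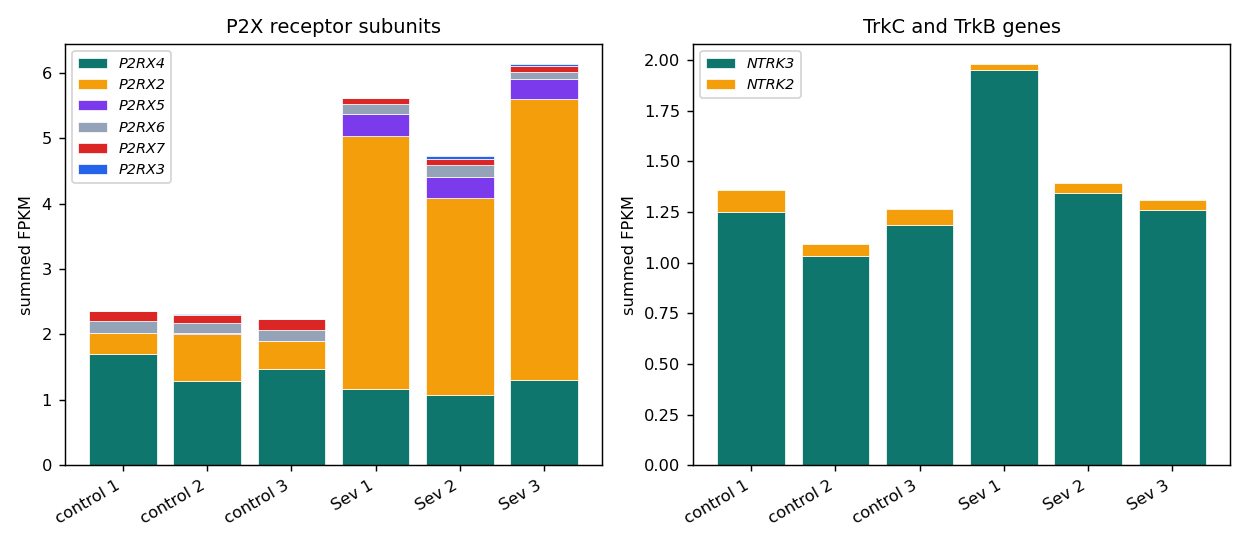
Summed FPKM (vertical axis, linear from 0) in each library of control and Sev-treated U251 cells, as bars stacked by P2X gene (left) and by NTRK3 and NTRK2 (right). P2RX2 was 0.183 to 0.555 times P2RX4 in control and 2.78 to 3.34 times P2RX4 in Sev, and NTRK3 was 11.6 to 17.7 times NTRK2 in control and 27.6 to 63.2 times in Sev.

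BDNF, the ligand of TrkB (ENSG00000176697, chr11:27654893-27722058, minus strand), rose in Sev-treated cells. It had 712, 738 and 767 counts in control 1 to 3 and 2124, 2546 and 1846 counts in Sev 1 to 3. All Sev libraries were far above all control libraries, and the Sev libraries differed more among themselves than the controls did. The mean was 17.1 ± 1.43 CPM in control and 56.9 ± 10.6 CPM in Sev, a 3.33-fold difference (log2 fold change 1.74, SE 0.15, 95% interval 1.39 to 2.08, adjusted p = 0.000179). The BDNF call held in all 15 alternatives that gave it a value, with log2 fold changes between 1.20 and 1.86.

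BDNF-AS, the antisense gene (ENSG00000245573), shares 9.06% of the exonic bases of BDNF and had 794, 737 and 880 counts in control and 1695, 1819 and 1307 counts in Sev. It went from 18.5 ± 0.333 to 42.1 ± 8.10 CPM (log2 fold change 1.19, adjusted p = 0.000700). BDNF and BDNF-AS had the same order among the Sev libraries, Sev 2 highest and Sev 3 lowest. The count of BDNF was 0.897, 1.001 and 0.872 times that of BDNF-AS in control 1 to 3 and 1.25, 1.40 and 1.41 times in Sev 1 to 3, so the sense transcript gained more. Whether the counting used the strand is not given in the sources used here, and without it reads of the shared bases cannot be assigned to one strand. ENSG00000255496, which overlaps BDNF on its strand without a shared exon, had 15, 9 and 7 counts in control and 46, 32 and 30 in Sev (log2 fold change 1.96, adjusted p = 0.00583), and it passed the filter on low counts only through the Sev libraries.

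**Figure D3:**
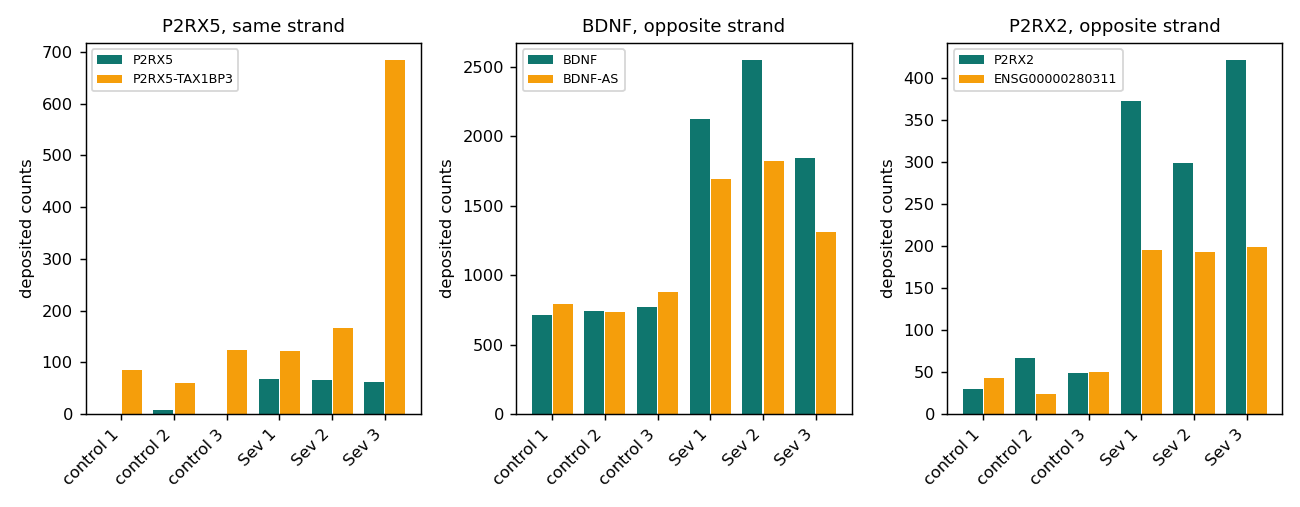
Deposited counts (linear axis from 0) of P2RX5, BDNF and P2RX2 in each library beside a feature that shares exonic bases with each. BDNF passed BDNF-AS in the Sev libraries, P2RX5-TAX1BP3 reached 684 counts in Sev 3 where P2RX5 had 61, and ENSG00000280311 rose alongside P2RX2.

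Among other neurotrophins, NTF3 (neurotrophin-3) had 0 counts in all libraries, and NTF4 (neurotrophin-4), a further ligand of TrkB, had a log2 fold change of 0.29 (adjusted p = 0.499). FURIN, a convertase that cleaves neurotrophin precursors, rose from 133 to 224 CPM (log2 fold change 0.75, adjusted p = 0.00156), and it is named after its values were seen. The convertase genes PCSK1, PCSK5, PCSK6 and PCSK7 of the same list were not called (log2 fold changes -0.44, 0.20, 0.48 and 0.04).

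NTRK2, which encodes TrkB (ENSG00000148053, chr9:84668551-85027070, plus strand), was low and fell. It had 109, 58 and 97 counts in control 1 to 3 and 32, 50 and 47 counts in Sev 1 to 3. The highest Sev library, with 50 counts, was close to the lowest control with 58, and the groups did not overlap. The mean went from 2.01 ± 0.557 to 1.12 ± 0.247 CPM (log2 fold change -0.84, SE 0.28, 95% interval -1.50 to -0.19, adjusted p = 0.0429). This NTRK2 call was near the limit and was lost without control 1 (adjusted p = 0.136), control 3 (0.0965), Sev 1 (0.127) or Sev 3 (0.0761), and by DESeq2's Wald test (adjusted p = 0.0641). Gene counts add the full-length receptor and truncated TrkB forms that lack the kinase, so they do not tell which form differed.

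NTRK3, which encodes TrkC (ENSG00000140538, chr15:87859751-88256768, minus strand), was more abundant than NTRK2 in every library. Its level was 38.6, 33.2 and 37.6 CPM in control 1 to 3 and 67.8, 48.5 and 42.5 CPM in Sev 1 to 3. Sev 1 stood above the other Sev libraries, and the lowest Sev library was above the highest control. NTRK3 rose from 36.5 ± 2.83 to 52.9 ± 13.2 CPM (log2 fold change 0.54, SE 0.17, adjusted p = 0.0348). The NTRK3 value was 0.32 without Sev 1 (adjusted p = 0.0807), the call was also lost without control 1 (0.0732), control 2 (0.108) or control 3 (0.0815), and with library size as the only scaling adjusted p = 0.0963.

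On the FPKM scale, the level of NTRK3 was 11.6 to 17.7 times that of NTRK2 in control and 27.6 to 63.2 times in Sev libraries. The ranges of this ratio did not overlap between the groups.

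NGFR encodes p75, which binds all neurotrophins and their precursors (ENSG00000064300, chr17:49495293-49515017, plus strand). It had 91, 99 and 146 counts in control 1 to 3 and 151, 157 and 315 counts in Sev 1 to 3. Sev 3 was the highest by a wide margin, and all Sev libraries were above the controls. NGFR rose from 2.55 ± 0.431 to 5.38 ± 2.23 CPM (log2 fold change 1.07, SE 0.30, adjusted p = 0.0208). Its log2 value was 0.68 without Sev 3 (adjusted p = 0.0378), and the NGFR call was lost without control 1 (0.0755) or control 2 (0.0604). ENSG00000279036 on the opposite strand shares 22.3% of the exonic bases of NGFR and had at most 11 counts in a library.

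SORT1 encodes sortilin, the partner of p75 for neurotrophin precursors and a sorting receptor for BDNF, and it was an abundant transcript. It had 24826, 22895 and 29154 counts in control and 9827, 11031 and 10398 counts in Sev. SORT1 fell in all Sev libraries, from 588 ± 11.4 to 272 ± 18.4 CPM (log2 fold change -1.11, SE 0.080, adjusted p = 0.000112).

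CREB1 (ENSG00000118260, chr2:207529737-207603431, plus strand) fell. Its level was 29.8, 28.8 and 36.1 CPM in control 1 to 3 and 16.9, 16.3 and 17.3 CPM in Sev 1 to 3. The 3 Sev libraries were nearly equal and all lay far below the controls. The mean went from 31.6 ± 3.96 to 16.8 ± 0.518 CPM, 1.88-fold lower in Sev (log2 fold change -0.91, SE 0.11, 95% interval -1.18 to -0.64, adjusted p = 0.000779), and the CREB1 call held in all 15 alternatives. METTL21A, which overlaps CREB1 on the other strand with no shared exon, had a log2 fold change of -0.43 (adjusted p = 0.0992). BDNF and CREB1, the ligand gene and a factor known to drive it, thus moved in opposite directions at the level of RNA; phosphorylation of CREB, which sets its activity, was not measured in these files.

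**Figure D4:**
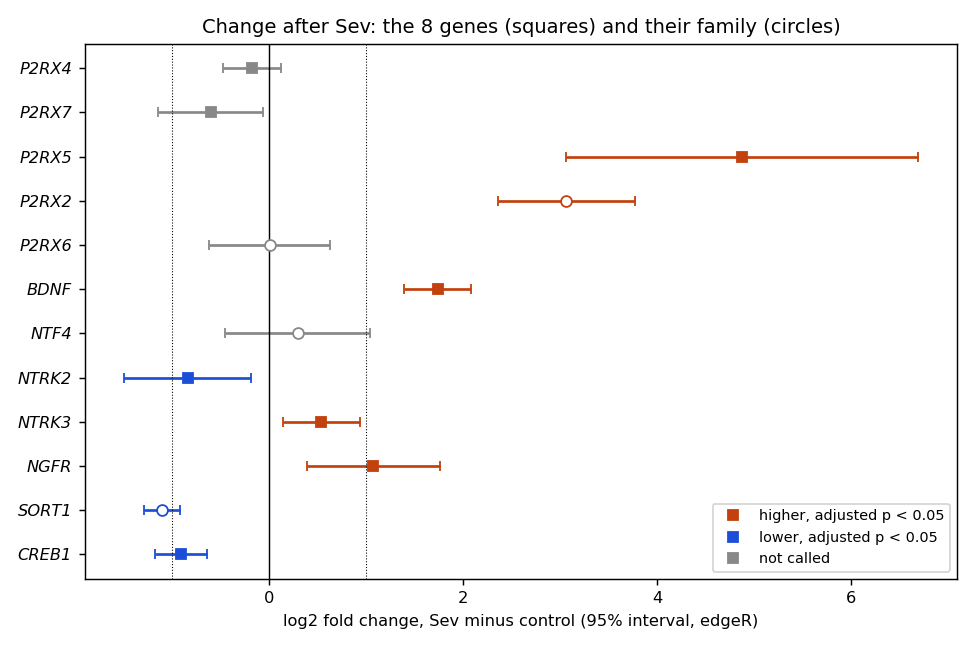
Log2 fold change (Sev minus control, horizontal axis) of the 8 genes and their relatives with 95% intervals from edgeR's quasi-likelihood fit. The interval of BDNF runs from 1.39 to 2.08 and that of CREB1 from -1.18 to -0.64, while that of P2RX4, from -0.48 to 0.12, crosses 0.

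Per length, the order of the 8 genes in control cells by mean FPKM was CREB1 (2.20), BDNF (1.86), P2RX4 (1.49), NTRK3 (1.16), NGFR (0.521), P2RX7 (0.150), NTRK2 (0.0824) and P2RX5 (0.00948). CREB1 and BDNF overlapped between their control libraries and the other neighbours did not. In Sev-treated cells BDNF was first at 5.61 FPKM, followed by NTRK3 (1.52), P2RX4 (1.18), CREB1 (1.06) and NGFR (1.005), whose neighbours overlapped. P2RX5 (0.317), P2RX7 (0.0892) and NTRK2 (0.0414) were last, with no overlap between neighbours among them. Per length, BDNF and TrkB thus stood at opposite ends of the order in Sev-treated cells, the ligand transcript first and the receptor transcript last. That order depends on the length divided by, and the merged transcripts of NTRK2 span 20363 exonic bases beside 5546 of P2RX7. In counts NTRK2 was above P2RX7 in every library, and NTRK3 was above BDNF in Sev 1.

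The genes whose log2 CPM (prior count of 2) followed those of P2RX4, BDNF and NTRK2 most closely over the 6 libraries are given as a description, since Pearson's r over these libraries mixes the groups and has no p. For P2RX4 they were SLC27A5 (r = 0.997), CBLL1 (0.987) and TXNIP (0.986), and 21 of 15181 protein-coding genes were above 0.95. For BDNF they were ALKBH4 (r = 0.9997), TRIM35 (0.999) and RIT1 (0.999), with 1321 genes above 0.95. For NTRK2 they were PMEL (r = 0.994), KCTD15 (0.992) and CAPN3 (0.988), with 120 genes above 0.95.

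Of 32 listed genes of purinergic signalling, 26 were tested, 6 rose and 7 fell, with a median log2 fold change of -0.10 beside -0.0056 for all features tested. The 13 calls were 50.0% of those tested, near the 43.7% over all features (22.1% higher and 21.5% lower), and the same background holds for each list. Of the 6 that rose, P2RX5 and SLC17A9, a transporter that loads ATP into vesicles, passed the filter on low counts only through the Sev libraries. P2RY11, a receptor for ATP, rose (log2 fold change 2.10), but 50% of its exonic bases are shared with the read-through gene PPAN-P2RY11, which rose as well (2.80, adjusted p = 0.0201), a call that was lost without control 3 (0.0713) or Sev 1 (0.0526). The receptors P2RY1 for ADP and ADORA1 for adenosine fell, with log2 fold changes of -1.48 and -1.70, and so did ENTPD3, an enzyme that breaks down ATP (-1.52).

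Of 27 listed neurotrophins, receptors and processing factors, 21 were tested, 7 rose and 3 fell (median log2 fold change 0.29), and the 47.6% called was near the 43.7% over all features. Without control 1 there were 6 calls in place of 10 (27.3% beside 33.6% of all features). SORCS2, a partner of p75 related to sortilin, rose (1.93), and SORL1, which sorts neurotrophin receptors, fell (-0.35). The SORL1 call was lost without control 1 (adjusted p = 0.0514) or Sev 1 (0.0752). Of 54 listed genes of Trk and p75 signalling, 51 were tested, 16 rose and 7 fell (median 0.17), and the 45.1% called was about that of all features, 43.7%. The adaptor IRS1 (log2 fold change 1.13) and RIPK2, which binds p75 (1.09), rose, while the exchange factor SOS2 (-0.73) and the kinase MAP2K5 (-0.70) fell.

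Of 39 listed genes of the CREB machinery, 37 were tested, 18 rose and 4 fell (median log2 fold change 0.25), which is 59.5% called beside 43.7% of all features. Without Sev 1 the calls in this list went from 22 to 12, and its 32.4% was then level with the 32.5% of all features. CREB5 (1.22), the acetyltransferase EP300 (0.61) and the coactivator CRTC3 (0.77) rose, whereas the coactivator CRTC1 (-0.49) and SIK2, a kinase that holds CRTC proteins in the cytoplasm (-0.67), fell along with CREB1. The CRTC1 call was lost without control 2, control 3, Sev 1, Sev 2 or Sev 3, in each case on its own (adjusted p between 0.0549 and 0.119). Of 45 listed target genes of CREB, 39 were tested, 14 rose and 7 fell (median 0.17), which is 53.8% called beside 43.7% of all features. One of those higher, NPAS4, had 0, 0 and 2 counts in control and 18, 13 and 15 in Sev and passed the filter only through the Sev libraries. PER2, a clock gene (1.74), and GADD45B, a stress response gene (1.86), rose together with BDNF, and FOS (-0.50) and BTG2 (-1.96) fell. PCK1, an enzyme of glucose synthesis, was called lower with 56, 25 and 52 counts in control and 9, 0 and 5 in Sev, but it passed the filter on low counts only through the control libraries. The lists shared genes with one another, and BDNF stood in more than one.

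**Figure D5:**
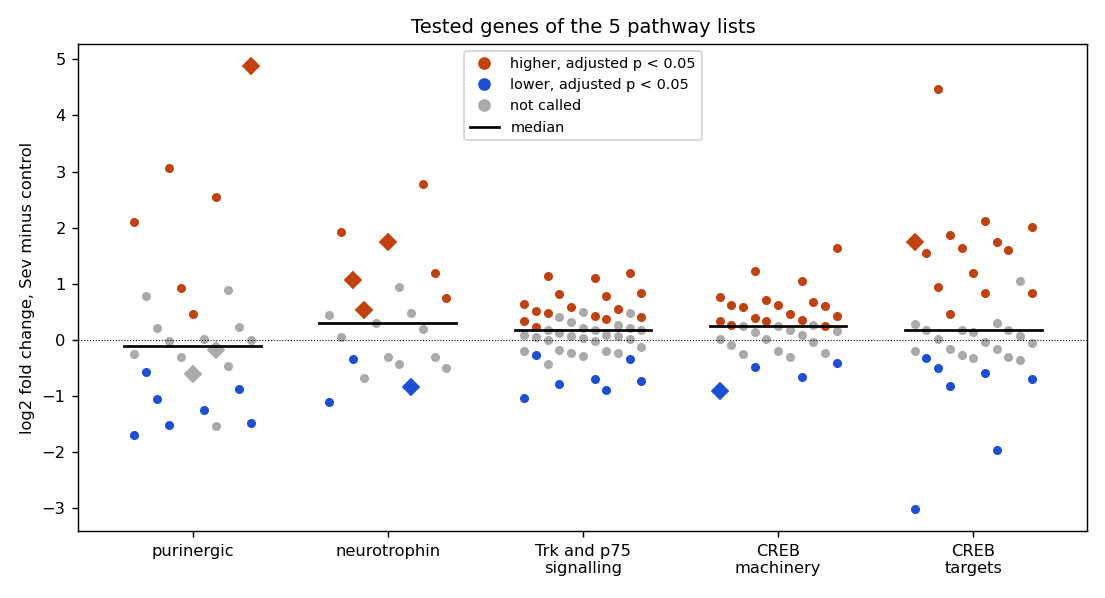
Log2 fold change (Sev minus control) of each tested gene of the 5 pathway lists, with the list median as a bar, diamonds for the 8 genes of the report and colors for genes with an adjusted p under 0.05. List medians lay between -0.10 and 0.29, and the point of P2RX5 at 4.88 rests on controls at or near 0 counts.

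Library totals ran from 38624292 to 46318311 counts, and 3 counts corresponded to 0.0618 to 0.0798 CPM. Of 12 glial markers 10 were tested, with GFAP, VIM and NES present in all libraries, while AQP4 and ALDH1L1, markers of mature astrocytes, were near 0. S100B and SOX2 fell (log2 fold changes -1.10 and -0.72, adjusted p = 0.00215 and 0.000367) and CD44 rose (0.97, adjusted p = 0.000174). Summed glial FPKM, most of it VIM, was 1336 to 1562 in control and 1336 to 1436 in Sev. Since P2RX4 and BDNF are also known from microglia, 8 microglial markers were read. AIF1 and TYROBP had 0 counts in all libraries, PTPRC and CX3CR1 were near 0, and the summed FPKM was 1.49 to 2.52 in control and 4.41 to 5.07 in Sev. Of the 4 tested markers 3 were called higher, but TMEM119 (0, 5 and 0 counts in control, 284, 217 and 337 in Sev) and ITGAM (2, 3 and 0 counts in control, 69, 33 and 130 in Sev) passed the filter on low counts only through the Sev libraries. The third was CSF1R (log2 fold change 0.72, adjusted p = 0.0201). Summed FPKM in control and Sev was 109 to 227 and 142 to 221 for 13 neuronal markers, 11.4 to 21.6 and 19.0 to 22.2 for 8 oligodendrocyte markers, and 91.3 to 110 and 65.2 to 81.9 for 8 fibroblast and endothelial markers. The neuronal sum was mostly NEFL (log2 fold change 0.22, adjusted p = 0.620), while TUBB3 (0.68), SYT1 (0.55) and GAP43 (0.82) rose and GAD1 fell (-1.16). The oligodendrocyte sum was mostly CNP, while OLIG2 (log2 fold change -1.99) and SOX10 (-0.94) fell and MBP rose (1.01). OLIG1 was called lower too, with 21, 24 and 37 counts in control and 6, 12 and 3 in Sev, and passed the filter only through the control libraries. The fibroblast and endothelial sum was mostly COL1A2, which fell (-0.42), while PECAM1 (0.92) and KDR (0.52) rose. The part of all these markers in the results was not tested.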

How the data were processed

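RNA sequencing of 6 libraries of U251 cells, 3 control and 3 Sev, was analysed from the deposited table of raw counts per gene and the FPKM values that the authors computed from the same libraries. The submitters' processing notes name bcl2fastq 2.19, featureCounts and the build hg18; the aligner, annotation and strand setting of the counting are not given in the sources used here. The tables carry no coordinates, so symbols (60295 of 61496 identifiers matched) and positions were joined by Ensembl identifier, positions from GENCODE 29 (GRCh38). MSTRG identifiers (932) kept their own name.

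After filterByExpr and TMM scaling, counts were fitted by glmQLFit with the group as the only term (edgeR 4.0.16, R 4.3.3) and tested by glmQLFTest, with Benjamini-Hochberg adjustment over 27514 features. CPM hold no prior count. Intervals cover 95%. Alternatives were DESeq2 1.42.0 (size factors; Wald test), leaving out each library, a replicate block, library size only, no filter, a minimum of 10 counts in all libraries, and limma 3.58.1 on log2(FPKM + 1) or log2(FPKM + 0.1), both for features that reached an FPKM of 0.5 in 3 libraries, and the former also unfiltered. Tested on simulated counts with 200 changed features, edgeR recovered 84% of those changed by 2 and 36% of those changed by 1 (log2), and called 0.0226% of the others. No other feature changed in the simulation, while 43.7% of features were called in the data. These rates therefore do not describe the fit to the data. With libraries scaled by total counts alone, the replicate pairs of a group differed beyond sampling noise in 49% to 66.5% of abundant features, so none was counted as a duplicate. An offset in scaling between libraries would add to these shares. An exact permutation test of 3 against 3 could not go below 0.1.

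The genes and lists were chosen with earlier results of these data known. List genes named were the 3 with the smallest p in each direction among those past the limit; some results under this rule are not reported here. Other genes named are the family members, features that overlap or precede a gene, and those said to be named after their values were seen. Cell type markers and the genes closest in pattern are named too. SLC17A9 and NPAS4 are named because they were called but passed the filter only through the Sev libraries. The motif search covered both strands of the RefSeq windows.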

Additional observations from a re-analysis of the deposited data

How the results depend on the processing

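Of the 8 genes, 6 passed the adjusted limit as reported, between 3 and 6 when 1 library was left out (3 without control replicate 1), 4 with no expression filter on the counts (NTRK2 and NTRK3 lost), 2 of the 5 testable by limma on log2(FPKM + 1), 2 of the same 5 on log2(FPKM + 0.1) and 3 of 8 on log2(FPKM + 1) unfiltered. The threshold of the study took 3 as reported, 2 to 4 with 1 library left out and 1 in each of the 3 limma settings. BDNF and CREB1 passed in all settings. P2RX5 was not testable with at least 10 counts in every library, nor were P2RX5, P2RX7 and NTRK2 in the filtered FPKM. Libraries of the same replicate number showed no shared deviation from their group means (correlations -0.0072, 0.0035 and 0.027). That cannot tell whether they were handled together. With the replicate block 5 genes passed, NTRK2 being lost (adjusted p = 0.0969), as was SORL1 of the lists (0.0522), and 37.3% of all features were called. Scaling by library size only moved the median of all features to -0.15 (log2). The CREB machinery list had 22 calls as reported, 14 without a filter and 12 to 18 with 1 library left out (12 without Sev replicate 1), and the neurotrophin list had 10 as reported and 6 to 11 (6 without control replicate 1). The log2 value of P2RX6 reversed to -0.14 (library size only), -0.0068 (no filter), -0.0026 (at least 10 counts), -0.016 (replicate block), -0.022 (unfiltered FPKM), and, with 1 library left out, -0.093 (without control replicate 2) and -0.21 (without Sev replicate 2), in a range of -0.21 to 0.17; the cause was not tested. Depth limits P2RX7, NTRK2 and P2RX5, which had under 110 counts in every library.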

Other observations

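ENTPD1, which encodes the ectonucleotidase CD39 that breaks down extracellular ATP, had 653, 803 and 886 counts in control 1 to 3 and 358, 331 and 8 counts in Sev 1 to 3. Sev 3 stood far below Sev 1 and Sev 2, and the log2 fold change of -1.54 did not pass edgeR's quasi-likelihood test (adjusted p = 0.179). Sev 3 was also the highest library for NGFR and for P2RX5-TAX1BP3. ENTPD1 was chosen after its values were seen.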
